A study of Mus musculus with 20 samples.

Results

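The genes described here are 9 acute phase genes best known from the liver, read in the lungs of mouse dams: Orm1 and Orm2, the fibrinogen genes Fga, Fgb and Fgg, Itih4, Serpina3n, Serpina3g and Apcs. They were chosen by the gene name that the array's spot files give each probe, and all 9 were found, each with 1 probe. The reading is the log2 ratio of lung over reference RNA in the authors' deposited value table, compared between dose groups and within them. A gene entered the fit when, in some group, 3 or more of the 5 arrays read its lung RNA well above background, which 8 of the 9 genes and 19903 genes in all did. Apcs did not.

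Lung RNA came from 20 female C57BL/6BomTac mice, time-mated, that were instilled into the trachea on 4 days of pregnancy, from gestational day 7 to day 18, and killed 26 to 27 days after the exposure, once their pups were weaned. There were 5 dams in each of 4 groups: control dams received the vehicle, Milli Q water; low-dose dams received 11 µg of carbon black Printex 90 per animal in total (2.75 µg each time); medium-dose dams received 54 µg (13.5 µg each time); and high-dose dams received 268 µg (67 µg each time). All groups, controls included, shared the pregnancy, the instillations and the lactation. Each dam's RNA was labelled with Cy5 and hybridised to its own Agilent array against Cy3-labelled universal mouse reference RNA, a commercial mixture, with no dye swap, and dams are named by the number in the sample titles.

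Acute phase proteins are plasma proteins that the liver secretes in larger amounts when inflammatory cytokines, above all interleukin 6 and interleukin 1, reach it. Interleukin 6 acts through the transcription factor STAT3, and interleukin 1 through NF-kappaB and C/EBP factors. Fibrinogen, assembled from the products of Fga, Fgb and Fgg, forms the fibrin clot; the orosomucoids encoded by Orm1 and Orm2 bind small molecules in plasma and modulate immune cells; Itih4 belongs to the inter-alpha-trypsin inhibitor heavy chains; Serpina3n and Serpina3g encode serine protease inhibitors; and Apcs encodes serum amyloid P, a pentraxin and a major acute phase protein of the mouse. Epithelial cells and macrophages of the lung can make some acute phase proteins themselves, and orosomucoid is also made in fat tissue.

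The sequences below are the parts of the transcripts that 4 of the genes were read from, since the dose comparison turns on them. They are the probes as the spot files list them, with the mm7 coordinates given there, and none is in capitals because no base was singled out. The Orm1 probe covers 608 bases of the genome with a sequence of 60 bases, so it spans at least 1 intron, and the others are continuous.
Orm1 probe (chr4:62779145-62779752, plus strand): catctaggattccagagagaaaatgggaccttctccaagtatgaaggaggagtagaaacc
Orm2 probe (chr4:62797641-62797700, plus strand): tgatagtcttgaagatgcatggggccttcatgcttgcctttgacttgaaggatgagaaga
Fgb probe (chr3:83147097-83147156, minus strand): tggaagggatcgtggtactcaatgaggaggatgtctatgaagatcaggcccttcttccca
Itih4 probe (chr14:28326483-28326542, plus strand): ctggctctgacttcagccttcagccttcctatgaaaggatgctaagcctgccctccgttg
Orm1, Orm2 and Orm3 are close paralogs that lie side by side on chromosome 4, so a transcript of one may bind the probe of another. The probes themselves were taken from different parts of the transcripts: in the best ungapped alignment on either strand, the Orm1 and Orm2 probes shared 24 of 60 bases. For Serpina3g and Serpina3n, members of a dense cluster of related genes on chromosome 12, it was 23 of 60. How much each probe reads its paralogs was not tested.

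Fibrinogen genes and orosomucoid genes each moved together over the dams, as described further on, and their promoters are therefore shown. The sequences are the 250 bases before the gene's start from RefSeq (GRCm38.p6), which has an entry for 8 of the 9 genes, and not for Orm1. Capitals mark 3 motifs searched on both strands: CTGGGA, the core of the interleukin 6 response element described in rat fibrinogen genes; GTTAAT, a part of the site of the liver factor HNF1; and TTNNGCAA, a form of the C/EBP site.
Fga promoter (chr3:83025903-83026152, plus strand): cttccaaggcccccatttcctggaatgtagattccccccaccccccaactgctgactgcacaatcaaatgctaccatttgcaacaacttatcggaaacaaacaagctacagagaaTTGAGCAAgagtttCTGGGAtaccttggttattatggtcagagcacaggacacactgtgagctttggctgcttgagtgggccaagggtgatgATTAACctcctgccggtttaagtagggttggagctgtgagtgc
Fgb promoter (chr3:83049864-83050113, minus strand): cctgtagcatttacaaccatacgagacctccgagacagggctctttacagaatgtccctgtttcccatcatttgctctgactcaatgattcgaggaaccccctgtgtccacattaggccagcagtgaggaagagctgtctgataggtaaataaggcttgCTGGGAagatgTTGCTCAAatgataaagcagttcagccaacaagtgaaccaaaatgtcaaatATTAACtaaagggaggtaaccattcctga
Fgg promoter (chr3:83007474-83007723, plus strand): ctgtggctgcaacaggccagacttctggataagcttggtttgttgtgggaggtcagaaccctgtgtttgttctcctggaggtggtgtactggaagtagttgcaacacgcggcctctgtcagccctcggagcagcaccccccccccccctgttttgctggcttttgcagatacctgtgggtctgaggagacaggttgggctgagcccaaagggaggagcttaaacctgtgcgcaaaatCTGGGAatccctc
Orm2 promoter (chr4:63362199-63362448, plus strand): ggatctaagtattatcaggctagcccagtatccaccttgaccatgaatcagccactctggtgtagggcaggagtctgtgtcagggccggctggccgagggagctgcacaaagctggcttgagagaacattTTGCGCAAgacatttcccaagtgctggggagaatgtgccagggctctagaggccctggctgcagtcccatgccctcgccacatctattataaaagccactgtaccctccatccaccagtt
All 3 motifs were present once in the windows of Fga and Fgb, whereas Fgg held only CTGGGA and Orm2 only TTNNGCAA. Among the genes whose promoters are not shown, Itih4 and Serpina3g held CTGGGA 1 time each and Apcs 2 times, with neither other motif. Serpina3n held none of the 3. CTGGGA occurred in 27.0% of the 32851 promoter windows of this length, GTTAAT in 6.43% and TTNNGCAA in 9.56%, so a match to the first is common. No motif overlapped another. A match is a description of letters, not of a factor bound in these lungs.

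Over the 20 arrays the Cy5 signal lay well above background for 64.0% to 78.3% of probes. Median Cy5 signals were 161.5 to 246.5 scanner units over local backgrounds of 80 to 83. The lowest shares, 64.0% and 65.6%, were those of medium-dose dams 49 and 50, and the next was 68.7% in high-dose dam 60. Dams 49 and 50 were alone on slide 6 and were scanned on a day of their own, and dam 50 had the lowest median Cy5 signal. Markers of alveolar type 2 cells, the surfactant producers, had a mean log2 ratio of 3.10 to 3.72 over the 20 dams, so these defining markers of the labelled tissue were high in each. The number of arrays, 5 per group, limits the precision.

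None of the 8 genes in the fit passed the test in any comparison, and Apcs was not tested. Between high-dose and control dams, 0 of the 8 genes fitted were called by limma at a Benjamini-Hochberg adjusted p under 0.05, against 1.04% of all genes. Of the 8 differences, 8 were above 0 in the high-dose dams (46.7% of all genes), with a median of 0.38 on the log2 scale against -0.0091 for all genes. These are not 8 separate readings. Within dose groups the fibrinogen genes had r of 0.84 to 0.98 with each other, and Orm1 and Orm2 had 0.93. Fga entered the fit through the low-dose and high-dose groups alone. The shared direction was therefore not tested. At an unadjusted p under 0.05 there were 2, Orm2 and Itih4, against 16.5% of all genes. For the medium and the low dose, 0 of 8 were called, as against 0.00502% of all genes in each, and the medians of the 8 differences were 0.14 and 0.52. At an unadjusted p under 0.05 there were 0 at the medium dose, where 14.1% of all genes reached it, and 1 at the low dose, Fgb, where 7.5% did. The 3 comparisons share the control dams, so they are not independent. Between the high and the medium dose (0.111% of all genes called) and between the high and the low dose (0.146%) 0 of 8 were called too, with 2 at an unadjusted p under 0.05 in each (10.4% and 9.97% of all genes), and for the slope over the 4 dose steps 0 of 8 were called (1.36% of all genes).

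**Figure D1:**
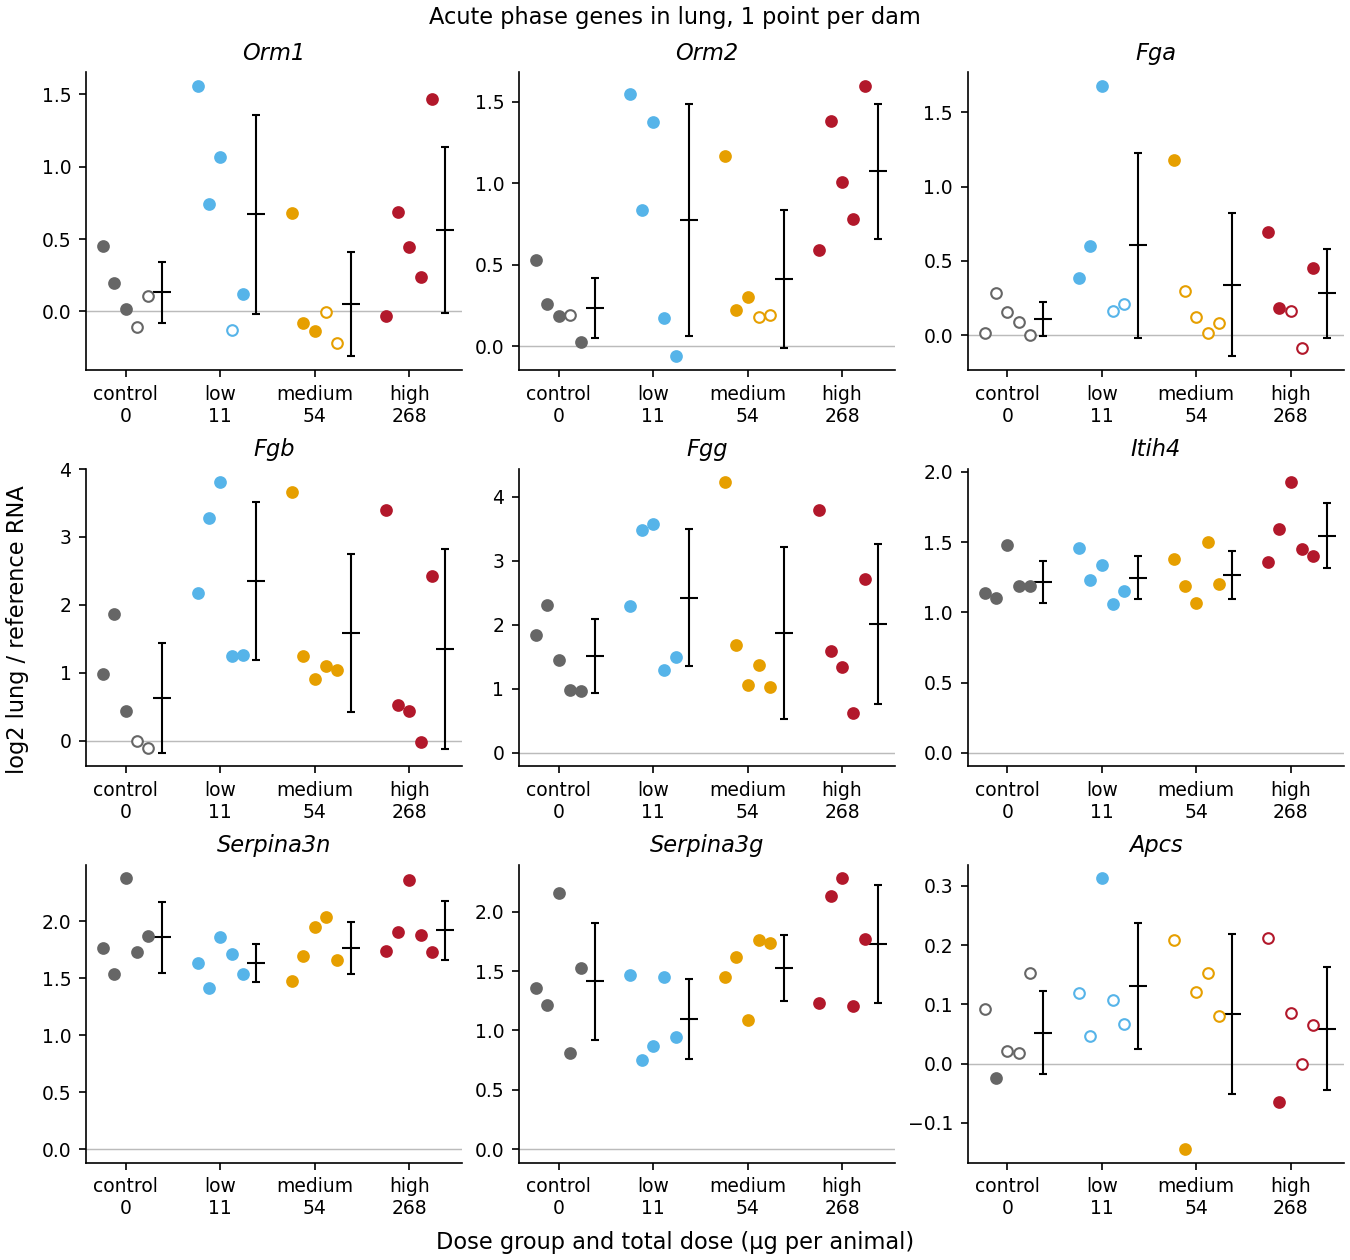
Log2 lung over reference RNA of the 9 genes in each dam, by dose group with the total dose in µg per animal; filled points had a Cy5 signal well above background, open points did not, and the black bar is the mean with its SD (n = 5). For Orm2 the 5 high-dose dams lie above the 5 control dams, while for Fgb and Fgg each dose group holds dams both near the controls and far above them.

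Orm2 had log2 ratios of 0.53, 0.26, 0.19, 0.19 and 0.024 in control dams 4, 7, 14, 15 and 18. In low-dose dams 25, 27, 28, 31 and 36 they were 1.55, 0.84, 1.38, 0.17 and -0.062. In medium-dose dams 46 to 50 they were 1.16, 0.22, 0.31, 0.18 and 0.19, and in high-dose dams 60, 62, 63, 64 and 65 they were 0.59, 1.38, 1.00, 0.78 and 1.60. All 5 high-dose dams lay above all 5 controls, whereas 3 low-dose dams and 1 medium-dose dam lay above the controls and the rest among them or lower. The mean was 1.07 ± 0.42 in high-dose dams and 0.24 ± 0.18 in control dams (SD, n = 5 each), a log2 difference of 0.83 ± 0.27 (SE), or 1.78-fold, which did not pass (limma, adjusted p = 0.130). A complete separation of the high-dose dams from the controls in the upward direction was seen for 1.51% of all genes. On the 5 slides that held both groups, the high-dose dam was above the control on 5 of 5, by 0.066 to 1.57. Per step of dose the slope was 0.21 ± 0.086 (limma, adjusted p = 0.205).

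Orm1 behaved much like Orm2 over the dams but separated the groups less. Its log2 ratios were 0.45, 0.19, 0.017, -0.11 and 0.11 in control dams 4, 7, 14, 15 and 18, and 1.56, 0.74, 1.07, -0.13 and 0.12 in low-dose dams 25, 27, 28, 31 and 36. In medium-dose dams 46 to 50 they were 0.68, -0.079, -0.13, -0.002 and -0.22, and in high-dose dams 60, 62, 63, 64 and 65 they were -0.029, 0.69, 0.45, 0.24 and 1.47. The highest dams were low-dose dam 25 and high-dose dam 65, and each dose group overlapped the controls. The differences from control were 0.54 ± 0.28 for the low, -0.082 ± 0.28 for the medium and 0.43 ± 0.28 for the high dose (SE; limma, adjusted p = 0.702, 0.916 and 0.480). Without low-dose dam 25 the first of these was 0.32, and without high-dose dam 65 the last was 0.20. Orm3, the third orosomucoid gene, differed by -0.024 between high-dose and control dams (adjusted p = 0.954).

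Both orosomucoid probes were dim. The Cy5 signal of Orm2 was 94 to 394 scanner units and that of Orm1 95 to 367, and it was well above background on 17 and 15 of the 20 arrays, and no background had been subtracted from the deposited ratios. On the Cy5 channel alone, as the software subtracted its background, the difference between high-dose and control dams was 2.53 for Orm2 and 2.81 for Orm1, still not called (adjusted p = 0.608 and 0.503). By the scanner software's own ratio the Orm2 difference was 1.54 (adjusted p = 0.496).

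Fibrinogen transcripts varied widely between dams of 1 group. Fgb, the beta chain, had log2 ratios of 0.98, 1.86, 0.43, -0.014 and -0.11 in control dams 4, 7, 14, 15 and 18, and 2.18, 3.28, 3.81, 1.25 and 1.26 in low-dose dams 25, 27, 28, 31 and 36. In medium-dose dams 46 to 50 they were 3.66, 1.25, 0.90, 1.09 and 1.05, and in high-dose dams 60, 62, 63, 64 and 65 they were 3.39, 0.52, 0.44, -0.022 and 2.43. Low-dose dams 27 and 28, medium-dose dam 46 and high-dose dam 60 each lay above 3, and 3 high-dose dams lay within the control range. The spread within groups, pooled, was 1.18 on the log2 scale, larger than that of 99.9% of genes, and for Fgg it was 1.10, larger than that of 99.8%. The median gene had 0.12.

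Fgb averaged 0.63 ± 0.81 in control dams, 2.35 ± 1.16 in low-dose dams, 1.59 ± 1.16 in medium-dose dams and 1.35 ± 1.48 in high-dose dams (SD, n = 5 each). The difference from control was 1.72 ± 0.67 for the low, 0.96 ± 0.67 for the medium and 0.72 ± 0.67 for the high dose (SE), none of them called (limma, adjusted p = 0.627, 0.540 and 0.645). The order did not follow the dose. Low-dose dams were above the control on 5 of 5 slides, by 1.20 to 3.38, and high-dose dams on 3 of 5, by -1.34 to 2.53. Single dams moved these values: without low-dose dam 28 the low-dose difference of Fgb was 1.36, without medium-dose dam 46 the medium-dose one was 0.44, and without high-dose dam 60 the high-dose one was 0.21.

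Fgg, the gamma chain, ranged from 0.97 to 2.31 in control dams, from 1.29 to 3.57 in low-dose dams, from 1.03 to 4.23 in medium-dose dams and from 0.62 to 3.79 in high-dose dams. Its highest value was in medium-dose dam 46 and its next in high-dose dam 60. The differences from control were 0.92 ± 0.63 for the low, 0.36 ± 0.63 for the medium and 0.50 ± 0.63 for the high dose (SE; limma, adjusted p = 0.779, 0.826 and 0.752). Without medium-dose dam 46 the medium-dose difference of Fgg was -0.23, and without high-dose dam 60 its high-dose difference was 0.053.

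Fga, the alpha chain, was close to the limit of detection. Its Cy5 signal was well above background in 0 of 5 control dams, 3 of 5 low-dose dams, 1 of 5 medium-dose dams and 3 of 5 high-dose dams. The highest log2 ratios were 1.68 in low-dose dam 28, 1.18 in medium-dose dam 46 and 0.70 in high-dose dam 60, the dams that were also high in Fgb, and the control dams lay between 0.0018 and 0.28. No control array read Fga well above background, so its differences from control below are not read as folds. Fga passed the filter through the low-dose and high-dose groups alone, so the filter itself favoured a difference from control. By the fit the differences in the ratio were 0.50 ± 0.25 for the low, 0.23 ± 0.25 for the medium and 0.17 ± 0.25 for the high dose (SE, limma, adjusted p = 0.679, 0.701 and 0.787). Without low-dose dam 28 the first of these Fga differences was 0.23, without medium-dose dam 46 the next was 0.019, and without high-dose dam 60 the last was 0.069.

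**Figure D2:**
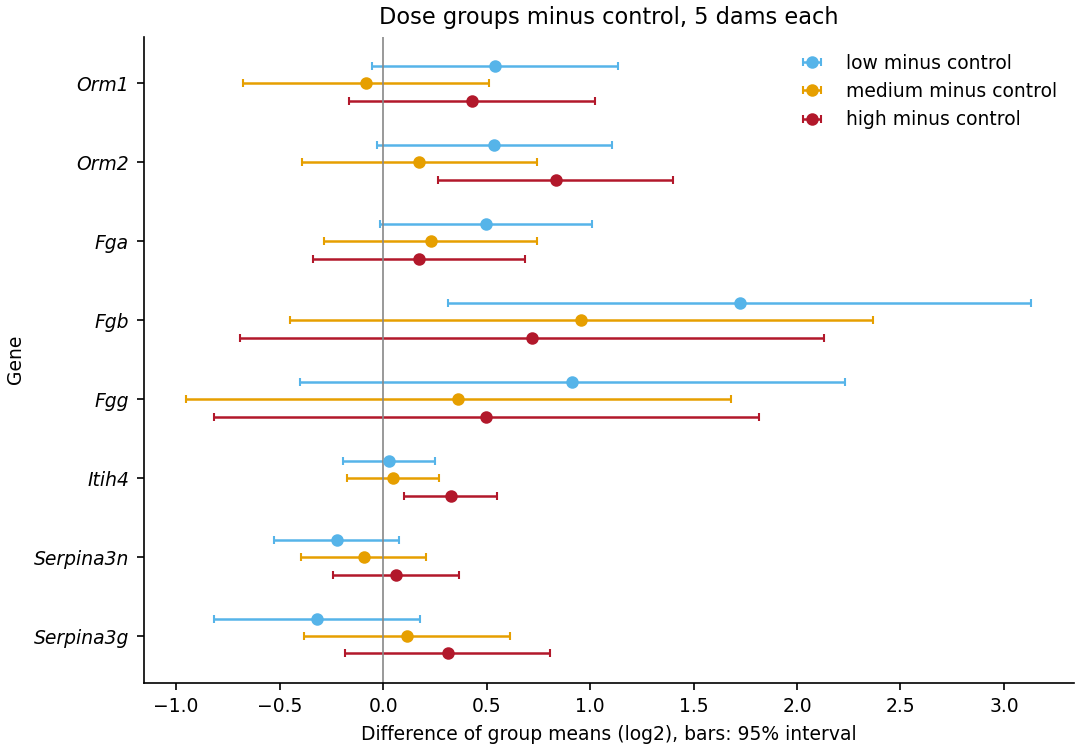
Differences of the group means from control on the log2 scale, with 95% intervals, for the 8 genes in the fit; low, medium and high dose run from top to bottom within a gene. The intervals of Orm2 and Itih4 at the high dose and of Fgb at the low dose lie above 0 before adjustment, and those of Fgb and Fgg are the widest.

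Itih4 was the steadiest of the 8, with a pooled spread within groups of 0.18, larger than that of 78.5% of genes. Its log2 ratios were 1.14, 1.10, 1.48, 1.19 and 1.19 in control dams 4, 7, 14, 15 and 18, and lay between 1.06 and 1.45 in low-dose dams and between 1.07 and 1.50 in medium-dose dams. In high-dose dams 60, 62, 63, 64 and 65 they were 1.36, 1.59, 1.93, 1.45 and 1.40, above all controls but dam 14, which exceeded 3 of them. The mean was 1.55 ± 0.23 in high-dose dams and 1.22 ± 0.15 in control dams (SD, n = 5 each). That is a log2 difference of 0.33 ± 0.11 (SE), or 1.25-fold, which did not pass (limma, adjusted p = 0.132), and it was positive on 5 of 5 slides, by 0.22 to 0.49. The low and the medium dose differed from control by 0.028 and 0.048 (SE 0.11 each; adjusted p = 0.969 and 0.871). The slope was 0.10 ± 0.034 per dose step (limma, adjusted p = 0.136).

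The signals behind the Itih4 ratio differed far more than the ratio itself. High-dose dams 62 and 63 had Cy5 signals of 2650.5 and 2625 scanner units, against 441.5 to 978 in the other 18 dams. The Cy3 signal of the same reference RNA was 324 and 279 on those 2 arrays, against 87 to 184 on the others. For Fgb, Cy5 ran from 92 to 7208 and Cy3 from 38.5 to 248, again with the highest of both on the array of low-dose dam 28. Over the 20 arrays log2 Cy5 and log2 Cy3 had a Pearson r of 0.97 for Itih4 and 0.93 for Fgb, as a description; both channels of an array share its hybridisation and its spot. The reference RNA was the same on every array, and why its signal differed was not tested. On the Cy5 channel alone the high-dose difference of Itih4 was 1.06 and that of Fgb 2.02, neither of them called (adjusted p = 0.422 and 0.999).

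**Figure D3:**
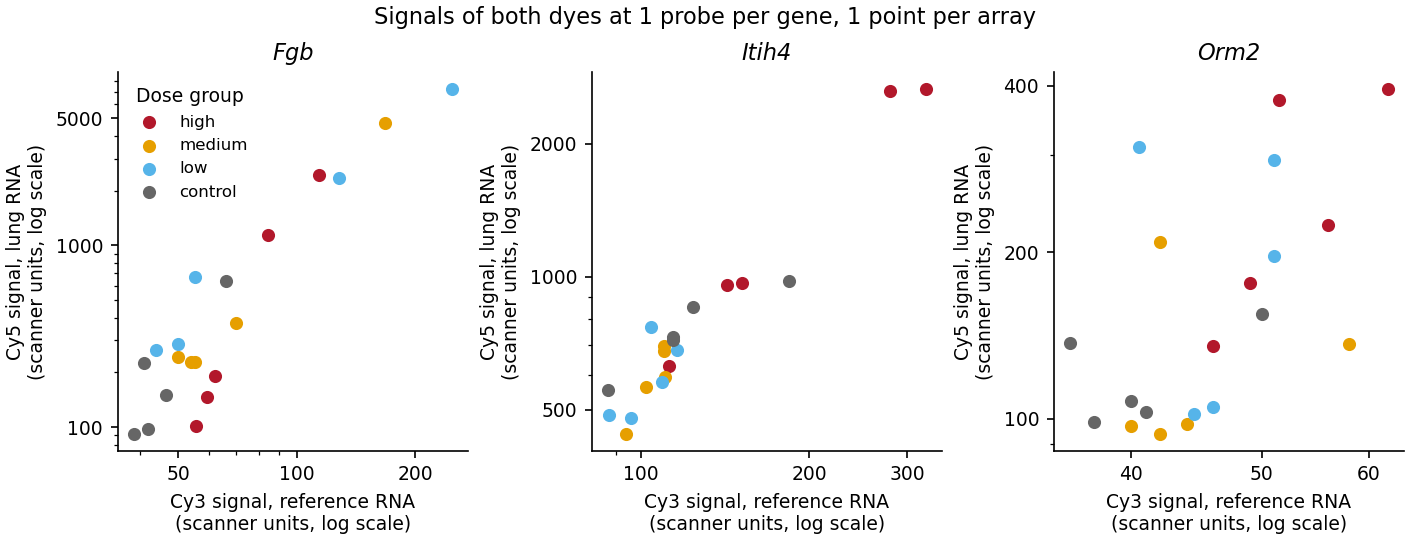
Cy5 signal of lung RNA against Cy3 signal of the common reference RNA at the probes of Fgb, Itih4 and Orm2, both in scanner units on log axes, 1 point per array. For Fgb and Itih4 the arrays with the highest lung signal also have the highest reference signal, including 2 high-dose arrays at 2625 and 2650.5 in Cy5 for Itih4.

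The serine protease inhibitor genes were well measured, with Cy5 signals above background on 20 of 20 arrays each, and did not follow the fibrinogens. Serpina3n averaged 1.86 ± 0.31 in control dams, 1.63 ± 0.17 in low-dose dams, 1.77 ± 0.23 in medium-dose dams and 1.92 ± 0.26 in high-dose dams (SD, n = 5 each), with its extremes at 1.42 in low-dose dam 27 and 2.38 in control dam 14. The differences from control were -0.23, -0.094 and 0.063 (SE 0.15; limma, adjusted p = 0.760, 0.800 and 0.877), and without control dam 14 the low-dose difference of Serpina3n was -0.096. Low-dose dams were below the control on 5 of 5 slides, by -0.51 to -0.020. Serpina3g averaged 1.41 ± 0.49 in control dams, 1.10 ± 0.34 in low-dose dams, 1.53 ± 0.28 in medium-dose dams and 1.73 ± 0.50 in high-dose dams. It was highest in high-dose dams 63 and 62 (2.28 and 2.13) and control dam 14 (2.15), and none of its differences was called (limma, adjusted p = 0.799 at the low, 0.859 at the medium and 0.553 at the high dose).

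Apcs was at or near background. Its Cy5 signal was well above background on 4 of 20 arrays, 1 in each group, and on 3 of these it was 159 to 164.5 scanner units (control dam 7, medium-dose dam 47 and high-dose dam 62), all on slide 2. On the other 17 arrays it was 87 to 110. The log2 ratios ran from -0.14 to 0.31, and no fold is given between groups that lie at background.

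Over the 20 dams the genes fell into 3 sets that varied together, though relations also ran between the sets. Among 36 relations computed, the 28 pairs of genes and each gene against the hepatocyte markers described next, Fgb and Fgg had a Pearson r of 0.95 and a Spearman rho of 0.88 (permutation test with 100000 resamples, two-sided, adjusted p = 5.14e-05 and 7.2e-05). Fga had an r of 0.87 with Fgb and 0.86 with Fgg (permutation, adjusted p = 5.14e-05 each). Orm1 and Orm2 had an r of 0.90 and a rho of 0.75 (permutation, adjusted p = 5.14e-05 and 0.000823). Taken as deviations from the dose group means, the r of Fgb with Fgg was 0.98, of Orm1 with Orm2 0.93, and of Fga with Fgb 0.84. Without the 2 dams farthest from the median of the first gene named, r was 0.94 for Fgb and Fgg, 0.91 for Fga and Fgb, and 0.85 for Orm1 and Orm2.

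Itih4, Serpina3n and Serpina3g formed a looser set, with an r of 0.64 for Itih4 and Serpina3g, 0.63 for Serpina3n and Serpina3g and 0.61 for Itih4 and Serpina3n (permutation, adjusted p = 0.00814, 0.0104 and 0.0216), and a rho of 0.54, 0.44 and 0.40 (adjusted p = 0.0457, 0.0972 and 0.123). Without the 2 dams farthest from the median these r were 0.40, 0.33 and 0.38, so the relations rest in part on those dams. Itih4 had an r of -0.064 with Fgb and 0.36 with Orm1, but 0.54 with Orm2 (permutation, adjusted p = 0.0313). Without the 2 dams farthest from the median of Orm2, the r of Itih4 and Orm2 was 0.55. Other dams were left out within the looser set, so this value cannot be ranked against its r. Taken as deviations from the dose group means, the r of Itih4 and Orm2 was 0.36, against 0.56 to 0.62 within the looser set. Between the orosomucoid and the fibrinogen genes r was 0.48 to 0.53 (permutation, adjusted p = 0.0313 to 0.0528). The sets were therefore not fully separate. Serpina3n ran against Fgb, with an r of -0.51 and a rho of -0.62 (permutation, adjusted p = 0.0444 and 0.0204).

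**Figure D4:**
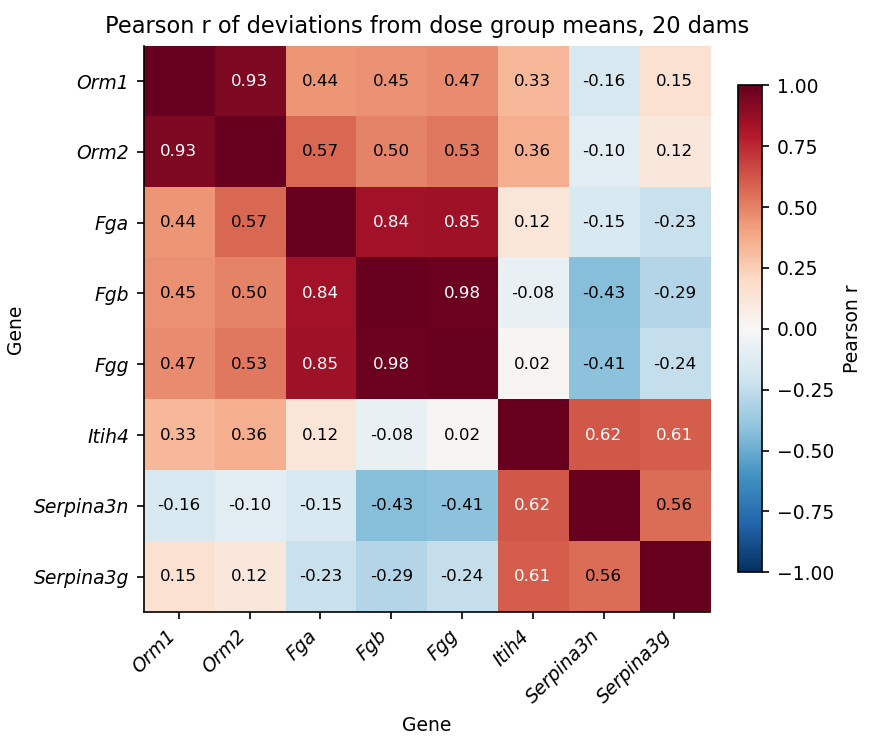
Pearson r between the genes over 20 dams, computed on deviations from the dose group means; red is positive and blue negative. The 3 fibrinogen genes share r of 0.84 to 0.98 and the orosomucoid genes 0.93, while Itih4 and the Serpina3 genes lie between 0.56 and 0.62 among themselves.

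Each set had different companions among all genes. The genes most like Fgb over the 20 dams included Cyp3a41a (r = 0.99) and Ces1c (0.98). Those most like Fgg included Ces1c (0.96) and Apoa2 (0.96), and those most like Fga were Pzp (0.97), Serpina6 (0.96) and Cyp3a44 (0.96). Within the dose groups the r of the genes named for the fibrinogens lay between 0.95 and 0.99. Orm1 was most like Sucnr1, Sc5d and Elovl6 (0.89, 0.89 and 0.88) and Orm2 most like Sc5d, Igf1 and Dbi (0.87, 0.84 and 0.79). Itih4 was most like Tgm1, Itih1 and Lrg1 (0.80, 0.79 and 0.78), Serpina3n like Cd33, Nlrc4 and Clec4n (0.78, 0.77 and 0.77), and Serpina3g like Bcl2a1b, Cd86 and Cyba (0.89, 0.86 and 0.86). These genes were picked for their likeness from all genes in the fit, so their r are descriptions, and the 20 points share the arrays.

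The fibrinogens moved with markers of hepatocytes, the cells of the liver that make plasma proteins. Of 26 hepatocyte markers, 23 were in the fit, among them Alb, which encodes albumin, and Apoa1, which encodes apolipoprotein A-I, while Ttr was not. Alb was well above background on 20 of 20 arrays, with log2 ratios of 0.46 to 3.47, and Apoa1 on 11, with 0.0075 to 2.11. The mean log2 ratio of the 23 ranged over 0.069 to 0.64 in control dams, 0.39 to 2.33 in low-dose dams, 0.30 to 1.85 in medium-dose dams and 0.12 to 1.47 in high-dose dams. Their summed Cy5 signal was 0.00127% to 0.00736% of the array in control dams, 0.00387% to 0.0923% in low-dose dams, 0.00267% to 0.0541% in medium-dose dams and 0.00189% to 0.0262% in high-dose dams. The highest dams were low-dose dam 28, medium-dose dam 46, low-dose dam 27 and high-dose dam 60, the 4 dams with Fgb above 3. The groups overlapped, 0 of the 23 markers were called at any dose, and the median difference from control was 0.80 at the low, 0.37 at the medium and 0.36 at the high dose, against -0.00034, 0.0068 and -0.0091 for all genes.

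The hepatocyte marker mean had an r of 0.96 and a rho of 0.95 with Fgb, 0.93 and 0.85 with Fgg, and 0.93 and 0.78 with Fga (permutation, adjusted p = 5.14e-05 for each r). Without the 2 dams farthest from the median these r were 0.96, 0.93 and 0.89. For Orm1 and Orm2 the r was 0.57 and 0.56 (permutation, adjusted p = 0.0303 each) and the rho 0.45 and 0.41 (adjusted p = 0.0934 and 0.118), and for Itih4 the r was -0.0070. With the marker mean as a covariate, the low-dose difference of Fgb was 0.21 ± 0.22 (SE) and its high-dose difference 0.059 ± 0.20, whereas the high-dose difference of Orm2 was 0.68 ± 0.23 and that of Itih4 0.33 ± 0.11, none of the 4 called. Without the 4 dams just named, Orm2 differed by 0.95 and Itih4 by 0.37 at the high dose (limma, adjusted p = 0.0771 and 0.134). Negative acute phase genes, which the liver makes less of in inflammation, were read too. Of 9 measured, 9 had positive differences at the high dose (46.7% of all genes) and 0 were called (1.04% of all genes). Ahsg was at 0.77, Apoa2 at 0.62, Alb at 0.54 and Apoa1 at 0.35. At the low dose 9 were positive as well, with a median of 0.79 against 0.35 at the high dose. These genes are largely hepatocyte markers too, and in whole lung more cells of a type and more RNA per cell cannot be told apart. The part of the hepatocyte markers in the fibrinogen differences was not tested.

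**Figure D5:**
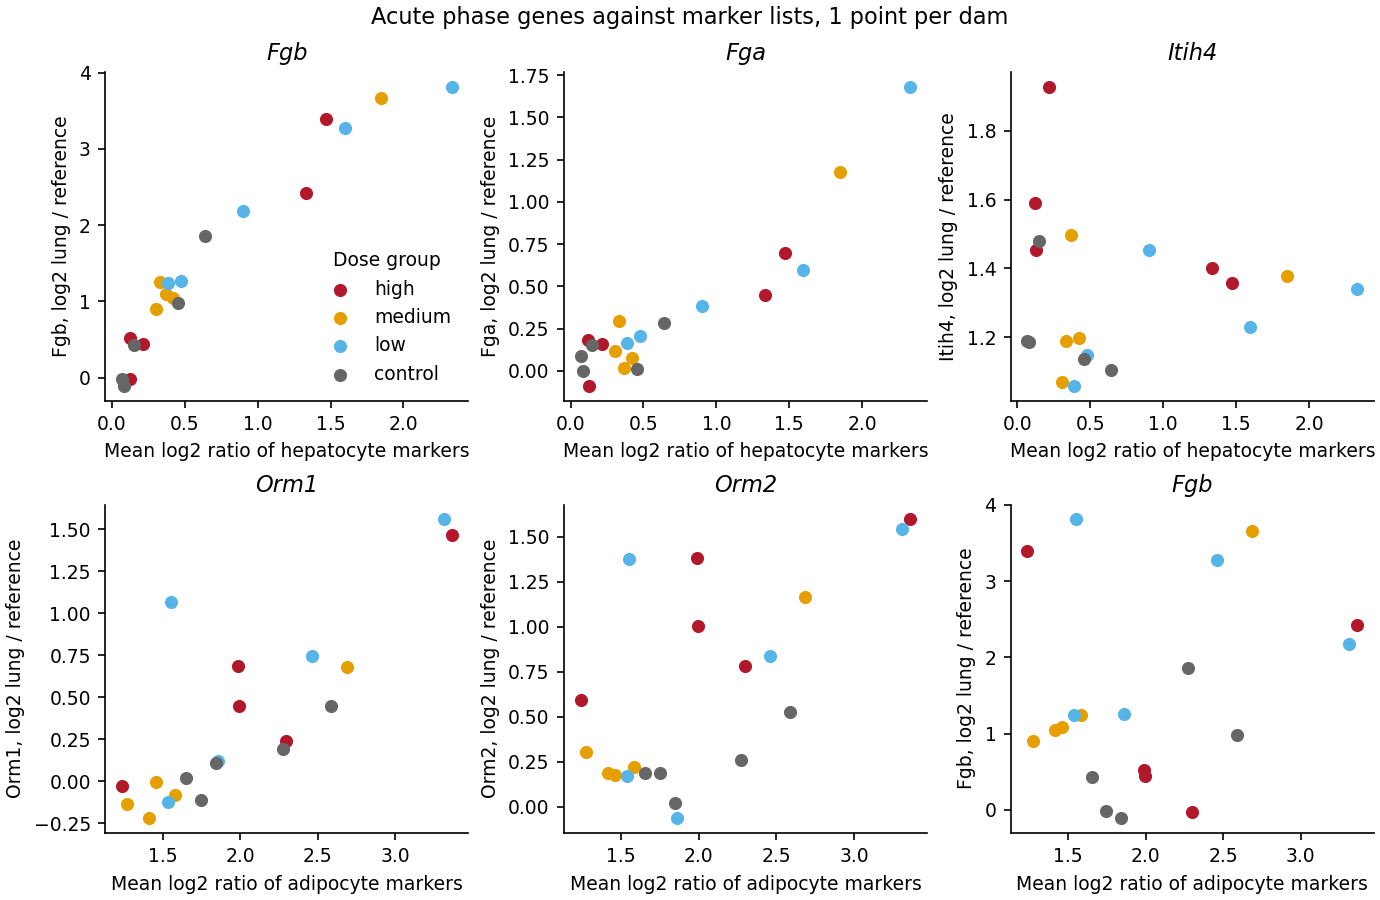
Log2 ratio of single genes in each dam against the mean log2 ratio of 23 hepatocyte markers (upper row) and 14 adipocyte markers (lower row). Over the 20 dams Fgb and Fga are higher where the hepatocyte marker mean is higher (r of 0.96 and 0.93) and Itih4 is not (r of -0.0070), while r along the adipocyte marker mean is 0.81 for Orm1, 0.64 for Orm2 and 0.24 for Fgb.

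Orosomucoid genes also varied with genes of fat tissue. A list of 16 adipocyte markers, 14 of them in the fit, was drawn up after the genes most like Orm1 had been seen, so it is a description only. Its mean log2 ratio was 1.65 to 2.59 in control dams, 1.54 to 3.31 in low-dose dams, 1.27 to 2.69 in medium-dose dams and 1.24 to 3.36 in high-dose dams, highest in high-dose dam 65 and low-dose dam 25, the 2 dams highest in Orm1. Adipoq, which encodes adiponectin, ranged from -0.28 to 4.73, and 0 of the 14 were called between high-dose and control dams. The summed Cy5 signal of the 14 was 0.131% to 0.224% of the array in control dams, 0.139% to 0.521% in low-dose dams, 0.116% to 0.234% in medium-dose dams and 0.128% to 0.785% in high-dose dams. Over the 20 dams r was 0.81 with Orm1, 0.64 with Orm2 and 0.24 with Fgb, and without the 2 dams farthest from the median it was 0.57, 0.38 and 0.11. With the hepatocyte markers the r of Orm1 and Orm2 without the 2 farthest dams was 0.49 and 0.42. Taken as deviations from the dose group means, r with the adipocyte mean was 0.82 for Orm1 and 0.69 for Orm2, and with the markers of fibroblasts and smooth muscle 0.76 and 0.67. With the mean of the 44 other acute phase genes described next, r over the 20 dams was 0.74 for Orm1 and 0.81 for Orm2. Within the dose groups it was 0.70 and 0.74. The fibrinogen genes had r of 0.80 to 0.85 with that mean over the 20 dams. The differences between these r were not tested. With the adipocyte marker mean as a covariate, the high-dose difference of Orm2 was 0.75 ± 0.20 (SE, limma, adjusted p = 0.0707). The part of the adipocyte markers in the result was not tested.

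Other acute phase genes, from a longer list, did pass at the high dose. Of 44 measured, 4 were called higher between high-dose and control dams (0.507% of all genes) and 0 lower: the serum amyloid genes Saa3 (2.22 ± 0.44, SE) and Saa1 (1.19 ± 0.24), the complement gene C3 (0.71 ± 0.15) and Lcn2 (1.08 ± 0.23), which encodes lipocalin 2, an iron-sequestering protein of epithelia and neutrophils (limma, adjusted p = 0.0182, 0.0189, 0.0222 and 0.0257). These calls depended on the processing: with normexp background correction of all spots the 4 adjusted p were 0.0690 to 0.103, and with only the 2 groups in the fit 0.104 to 0.129. The median difference of the 44 was 0.14 at the high, 0.082 at the medium and 0.12 at the low dose, and 0 were called at the medium and the low dose. Of 40 genes of acute phase signalling, 1 was called at the high dose, against 1.04% of all genes. It was Il1rn, the interleukin 1 receptor antagonist (0.52 ± 0.12, SE, limma, adjusted p = 0.0426). Osmr, Tnf and Stat3 followed at 0.38, 0.30 and 0.32 (limma, adjusted p = 0.0542, 0.0979 and 0.0982). Of the 40 differences 23 were above 0 and 17 below, with a median of 0.059. The Il1rn call was lost under 19 of 39 alternatives.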

How the data were processed

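Lung RNA of 20 dams was read on 20 two-colour Agilent arrays, 5 dams in each of 4 groups, with the lung in Cy5 and the reference in Cy3 per the labels. The authors deposited the spot files of the Feature Extraction software, which hold each spot's signals as scanner intensity and the software's dye ratio on the log10 scale, and a value table of the log2 ratio of lung over reference. That deposited log2 table has no background subtracted and column medians of -0.05 to -0.032, and the sources used here do not give its normalisation. It gives the main values, because the genes were defined on it; it followed the raw ratio of each array with an r of 0.962 to 0.993 over probes. Of the arrays, 18 were read with version 9.5.1.1 of that software and 2 with version 10.1.1.1, per the file headers. Those 2 were medium-dose dams 49 and 50, the arrays of slide 6. For them software version, slide and scan day cannot be told apart, and no other dose group had such arrays. The labels call the Cy5 RNA polyA RNA in one field and total RNA in the protocol.

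Spots marked as outliers were left out. A probe was kept when Cy5 was well above background on at least 3 of 5 arrays of a group, the brightest probe stood for a gene, and genes with values on fewer than 16 arrays were dropped. One linear model with a mean per group was fitted per gene with limma 3.58.1 (lmFit and eBayes, R 4.3.3) over all 20 arrays, two-sided, with Benjamini-Hochberg adjustment over all 19903 genes and calls at an adjusted p under 0.05. Slopes were taken over the steps control, low, medium and high. Probes were named through a RefSeq gene table by accession, symbol or synonym, and 8412 of 41174 probes matched none and kept the spot files' name. Of the 19903 entries counted as genes, 15632 were named through RefSeq. Correlations were tested by permutation (Python 3.11.15) and adjusted over 36 relations. Only the limma fit was tested on simulated data, with noise drawn independently for each gene. The filter, the permutations and the covariate fits were not tested in this way.

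The genes and the lists were chosen with earlier results of these data known, and the adipocyte list after the values were seen. Named were all 9 genes, the 4 genes of smallest p in high-dose against control dams and any called from each acute phase list, the first 3 hepatocyte markers, and the 3 genes most like each of the 8 in the fit, of which 1 gene is not reported here. Adiponectin and Orm3 were added. Slides 1 to 3 held all 4 groups, slides 4 and 5 control, low and high dose, and slide 6 only 2 medium-dose arrays. On slides with controls each group kept 1 position, so position and group cannot be told apart. The alternatives were the spot files with normexp (offset 50) and loess, no background correction, the software's ratio, the Cy5 channel alone, other scalings, filters and probe rules, the slide as a block, each dam left out, and the marker means as covariates. Whether dams were littermates or shared cages is not used here.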

Additional observations from a re-analysis of the deposited data

Results flagged for a closer look

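In 9 of the 36 groups of 5 dams (9 genes in 4 dose groups), 1 dam stood apart from the other 4, with a gap to its nearest neighbour above 0.71 of the group's whole range. Chance flags about 1 in 20 groups, and the genes are not independent of each other. Medium-dose dam 46 stood apart for 5 genes: the gap was 0.874 of the range for Fgb, 0.796 for Fgg, 0.761 for Fga, 0.872 for Orm2 and 0.759 for Orm1. It was also the highest medium-dose dam in hepatocyte and in adipocyte markers, with means of 1.85 and 2.69. This was not particular to those lists. Dam 46 was likewise highest in its group in markers of heart muscle (3.10), fibroblasts and smooth muscle (0.94) and airway epithelium (4.23). It was not the highest in markers of alveolar type 1 cells, alveolar type 2 cells or endothelium. The part of any of these was not tested. Low-dose dam 28, the highest dam in hepatocyte markers (2.33), stood apart for Fga (0.714) and for Apcs (0.726), where Apcs was close to background. Control dam 14 stood apart for Itih4 (0.773), at 1.48 against 1.10 to 1.19 in the other controls. High-dose dam 63 stood apart for Serpina3n (0.726), at 2.36 against 1.73 to 1.90.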

How the results depend on the processing

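The number of the 8 genes called was 0 in each of the 6 comparisons under every alternative run, 39 for each difference and 38 for the slope, over 7 genes with the filter of all arrays of a group, which Fga did not pass. The high-dose difference of Orm2 ranged from 0.68 to 2.53 (adjusted p of 0.0703 to 0.608) and that of Itih4 from 0.23 to 1.06 (0.0701 to 0.449); both kept their sign throughout. Leaving out 1 dam gave 0.70 to 0.95 for Orm2 and 0.23 to 0.39 for Itih4. The adipocyte and hepatocyte settings were chosen after seeing the data. No replicate number was shared between the groups, so dams were paired only by slide: with the slide as a fixed block the adjusted p at the high dose was 0.0951 for Orm2 and 0.0852 for Itih4, and as a random block 0.0703 and 0.0701.

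Among the 8 genes, 56 values changed sign; none was called under either setting, and the cause was not tested. With normexp on all spots the difference of Itih4 at the low dose was -0.16 and that of Orm1 between high and low dose 0.079. By the software's ratio Serpina3n at the medium dose was 0.10 and Fga between high and medium dose 0.40. On the Cy5 channel alone Orm1, Orm2 and Itih4 at the medium dose were 0.26, -0.021 and -0.14, Itih4 at the low dose -0.20, Fga between high and medium dose 0.021 and Orm1 between high and low dose 1.28. With the slide as a fixed block Itih4 and Serpina3g at the medium dose were -0.071 and -0.12. Without slide 6, Orm1, Itih4 and Serpina3g at the medium dose were 0.024, -0.0065 and -0.032 and Fgg between high and medium dose -0.31.

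With the hepatocyte marker mean as a covariate Fga was -0.022 at the low and -0.054 at the high dose, with a slope of -0.014. Fgg was then -0.47, -0.24 and -0.10 for the 3 doses from low to high and 0.36 between high and low dose, with a slope of -0.0090, and Orm1 between high and low dose was 0.083. With the adipocyte marker mean as a covariate Orm1 at the medium dose was 0.13 and Fgg between high and medium dose -0.12. Without the 4 dams highest in hepatocyte markers Orm2 and Fgg at the medium dose were -0.014 and -0.23, Fga between high and medium dose 0.049, Orm1 between high and low dose 0.19, and the Fgg slope -0.025.

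Leaving out 1 dam at a time gave -0.046 to 0.19 for Serpina3n at the high dose and -0.024 to 0.093 for Itih4 in low-dose dams. At the medium dose it gave -0.17 to 0.035 for Serpina3n, -0.036 to 0.30 for Serpina3g, -0.014 to 0.25 for Orm2, -0.23 to 0.57 for Fgg and -0.010 to 0.11 for Itih4. Between high and medium dose it gave -0.16 to 0.15 for Fga, -0.75 to 0.28 for Fgb and -0.31 to 0.72 for Fgg, and between high and low dose -0.34 to 0.11 for Orm1. For slopes it gave -0.0061 to 0.053 for Fga, -0.014 to 0.24 for Fgb, -0.039 to 0.20 for Fgg, -0.00086 to 0.071 for Serpina3n and -0.0013 to 0.11 for Orm1.

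The background count of all genes called between high-dose and control dams, 207, moved far more. It was 67 with normexp without the lowest spots, 15 with normexp on all spots, 9 by the software's ratio, 10 on Cy5 alone, 21 with only the 2 groups in the fit, 341 with the mean of a gene's probes, 388 with no filter, 408 by probe, and 616 and 693 with the slide as a fixed and a random block. Leaving out 1 dam gave 77 (without high-dose dam 62) to 242 (without high-dose dam 60). For the slope, 271 genes were called, against 3 to 779 over the alternatives, between high and low dose 29, against 2 to 142, and between high and medium dose 22, against 0 to 107 (107 without high-dose dam 60). Between medium-dose or low-dose and control dams it was 1, against 0 to 9. Saa3, Saa1, C3 and Lcn2 kept their direction and lost their calls under 5, 6, 8 and 8 of 39 alternatives. Osmr, Tnf and Stat3 were called under 7, 2 and 1. Dim signal limits Fga, Orm1 and Orm2, well above background on 7, 15 and 17 of 20 arrays, and each gene rests on 1 probe.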
